A study of Caenorhabditis elegans with 6 samples.

Results

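The genome of the nematode Caenorhabditis elegans holds large families of hedgehog-related genes and of genes related to patched, the hedgehog receptor of other animals. Every row of the deposited counts table was taken whose identifier has a symbol beginning with wrt-, grd-, grl-, hog- or ptr-, together with qua-1, ptc-1 and ptc-3. This gave 85 genes of the 46748 in the table, 59 of them hedgehog-related (10 wrt, 16 grd, 31 grl, hog-1 and qua-1) and 26 patched-related (24 ptr, ptc-1 and ptc-3). They were followed in N2, the wild-type strain, as whole hermaphrodites, with 3 libraries of worms under RNA interference against T25B9.1 (T25B9.1 RNAi) and 3 of worms given L4440, a feeding vector with no insert. All worms were labelled as 2 days old, and the series title counts days from the L4 larva. The targeted gene encodes the worm's glycine C-acetyltransferase, a mitochondrial enzyme that breaks down threonine. Whole worms hold germline, embryos and all somatic tissues, so fewer cells of a type and less RNA per cell cannot be told apart.

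In flies and vertebrates, hedgehog is a secreted ligand that binds patched, a membrane protein with a sterol-sensing domain, and so releases the signalling protein smoothened. C. elegans has no clear smoothened gene, and its hedgehog-related proteins share with hedgehog mainly the self-cleaving Hog domain, found in several warthog (wrt) and groundhog (grd) proteins, in quahog (qua-1) and in hog-1. Ground-like (grl) proteins lack it and are named for their likeness to groundhog. In the worm these families are best known for roles in the epidermis, in the cuticle and its shedding at each larval moult, in glia and in embryos.

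The libraries held 26125982 to 40726259 counts, of which the 85 genes took 0.149% to 0.184%. The knocked-down gene, T25B9.1, had 36, 49 and 73 counts in the T25B9.1 RNAi libraries, against 166, 154 and 185 in the L4440 libraries, with no overlap. One library was unlike the rest: in T25B9.1 RNAi replicate 1, 3.71% of the 13374 genes tested were over 2-fold above the mean of the other 5 libraries, against 0.0449% to 0.307% in each of the others. L4440 replicate 2 had the largest share of genes over 2-fold below that mean (3.38%). Since no label names separate cultures, the p-values here cover the spread among these 6 samples alone, and that spread may be technical.

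The patched-related genes ptc-1 and ptr-2 had the highest levels per length of the family. Levels per length are given as RPKM, computed from the counts as scaled counts per unit of depth (CPM) and per kilobase of annotated exons. The patched homologue ptc-1, which is needed for cell division in the germline, stood at 185 ± 13.6 RPKM in T25B9.1 RNAi worms and 173 ± 16.8 RPKM in L4440 worms (SD, n = 3 each). The patched-related gene ptr-2 followed at 139 ± 3.99 RPKM with T25B9.1 RNAi and 134 ± 7.27 RPKM with L4440. Over all libraries the ranges of ptc-1 and ptr-2 did not overlap. The lowest ptc-1 value was 161 RPKM and the highest ptr-2 value 143 RPKM. These 2 genes together supplied most of the members' reads, ptc-1 alone 53.1% to 59.1% of them in each library.

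The most abundant hedgehog-related genes were the groundhog genes grd-5 and grd-3. The gene grd-5 was at 39.9 ± 4.64 RPKM with T25B9.1 RNAi and 41.4 ± 5.43 RPKM with L4440. The gene grd-3 was at 23.5 ± 2.87 RPKM with T25B9.1 RNAi and 23.3 ± 4.09 RPKM with L4440. Behind them came wrt-10, ptr-21, grl-4, wrt-5 and ptr-24, whose means over all 6 libraries ran from 15.5 to 9.05 RPKM. Over the libraries wrt-10 ran from 10.6 to 26.4 RPKM, ptr-21 from 12.4 to 14.4 RPKM, grl-4 from 9.35 to 15.04 RPKM and wrt-5 from 9.85 to 12.5 RPKM, so these 4 neighbours in the order overlapped. The range of ptr-24, 8.12 to 9.61 RPKM, lay below that of wrt-5. The gene ptr-24 is known to act downstream of the ligand gene grl-21 in the control of mitochondrial shape and fat. Over all 6 libraries the median mean level was 1.48 RPKM among the 26 patched-related genes and 0.288 RPKM among the 59 hedgehog-related genes. Patched-related genes are also longer, with 2594 to 5077 exonic bases, against 420 to 3853 for the hedgehog-related genes, so they draw more reads at the same level.

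A filter on low counts left 54 of the 85 genes to test, 30 hedgehog-related and 24 patched-related. Of the 59 hedgehog-related genes, 8 of 10 wrt, 9 of 16 grd, 11 of 31 grl, hog-1 and qua-1 passed. A gene that passes only through the group in which it is high had to differ, so the counts below describe the 54 genes and not the whole family.

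With T25B9.1 RNAi most of the tested genes had higher values than with L4440. They were led by the hedgehog-related genes wrt-2, qua-1, wrt-4 and grd-10 and by the patched-related genes ptr-10 and ptr-4. None of the 54 passed the test, edgeR's quasi-likelihood test with Benjamini-Hochberg adjustment over all genes, and the lowest adjusted p among them was 0.717. The log2 fold change was above 0 for 46 of the 54 genes (85.2%), against 50.6% of all genes tested. Its median was 0.38 over the 54, against 0.0024 over all genes tested. Taking unadjusted p-values under 0.05, 12 of the 54 were higher (22.2%) and 0 lower, where 4.01% of all genes tested were higher and 2.17% lower. At an adjusted p under 0.05 edgeR called 0 of 13374 genes (0%), and at an unadjusted p under 0.05 it gave 826 (6.18%). DESeq2 called 1 of the 55 genes of the family for which it gave an adjusted p, wrt-2, where it called 0.104% of genes overall. The likelihood ratio test of edgeR called 0 of the 54 genes and 0.0897% of all genes.

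Without T25B9.1 RNAi replicate 1 the same median was 0.12, and 36 of the 54 genes (66.7%) were above 0, against 47.8% of all genes tested. In that comparison 4 of the 54 genes (7.41%) had an unadjusted edgeR p under 0.05, all higher: wrt-2, ptr-10, ptr-4 and ptr-6. Of the 13374 genes of the main comparison, 1.52% had such a p there and were higher. Over all 13575 genes tested without that library 2.31% had such a p in either direction. At an adjusted p under 0.05 none of the family was called there, against 0.00737% of all genes by edgeR and 0.0361% by DESeq2. The 3 RNAi libraries lay above all 3 L4440 libraries for 6 of the 54 genes (11.1%), namely wrt-2, qua-1, ptr-4, ptr-6, ptr-10 and ptr-20, where 5.53% of all genes did so. None of the 54 lay below, where 5.32% of all genes did. Leaving out T25B9.1 RNAi replicate 1 cannot lower such counts. It left them at 6 above and 0 below, where 7.28% of all genes then lay above and 6.77% below. The labels number the libraries, and libraries with consecutive numbers deviated together, so the comparison was also fitted with those pairs as a block. With the block 21 of the 54 genes (38.9%) had an unadjusted p under 0.05, all higher, against 6.89% of all genes tested, and none had an adjusted p under 0.05 (lowest edgeR adjusted p = 0.334). Within the 3 pairs, 26 of the 54 genes (48.1%) were higher in every RNAi library than in its partner, where 18.5% of all genes were, and 4 were lower in every pair (18.6% of all genes).

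**Figure D1:**
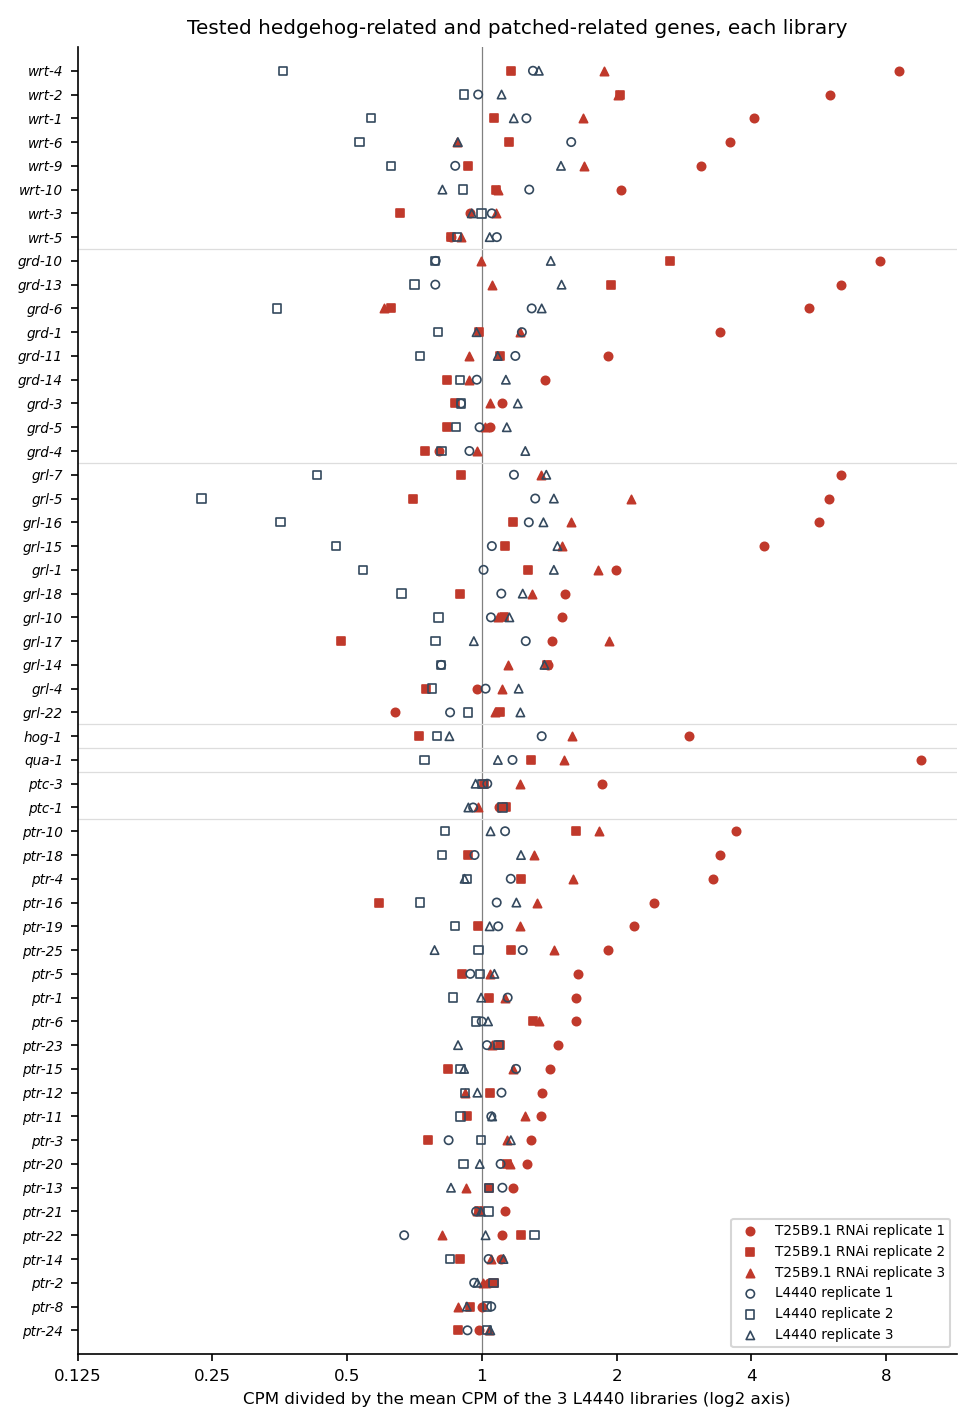
CPM of each of the 54 tested genes in each library, divided by the mean of the 3 L4440 libraries (horizontal log2 axis), with 1 row per gene grouped by family. Filled red symbols are T25B9.1 RNAi libraries and open blue-grey symbols L4440 libraries (circle, square and triangle for replicates 1, 2 and 3). The red circle of T25B9.1 RNAi replicate 1 is the rightmost symbol in 40 of the 54 rows, reaching 9.57 for qua-1, while ptc-1, ptr-2, grd-3 and grd-5 stay close to 1.

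Low levels and this library went together beyond the family. T25B9.1 RNAi replicate 1 was the highest library for 40 of the 54 genes (74.1%), against 28.2% of all genes tested. Among genes with a mean level of 0.2 to 1 RPKM it was the highest for 17 of 20 members and for 48.2% of all genes tested at that level, and the median log2 fold change was 0.53 for those members and 0.25 for those genes. At 1 RPKM or more it was the highest for 23 of 34 members and for 23.8% of all genes, and the median was 0.26 for the members and -0.017 for all genes. The part of level and of this library in the family's values was not tested.

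**Figure D2:**
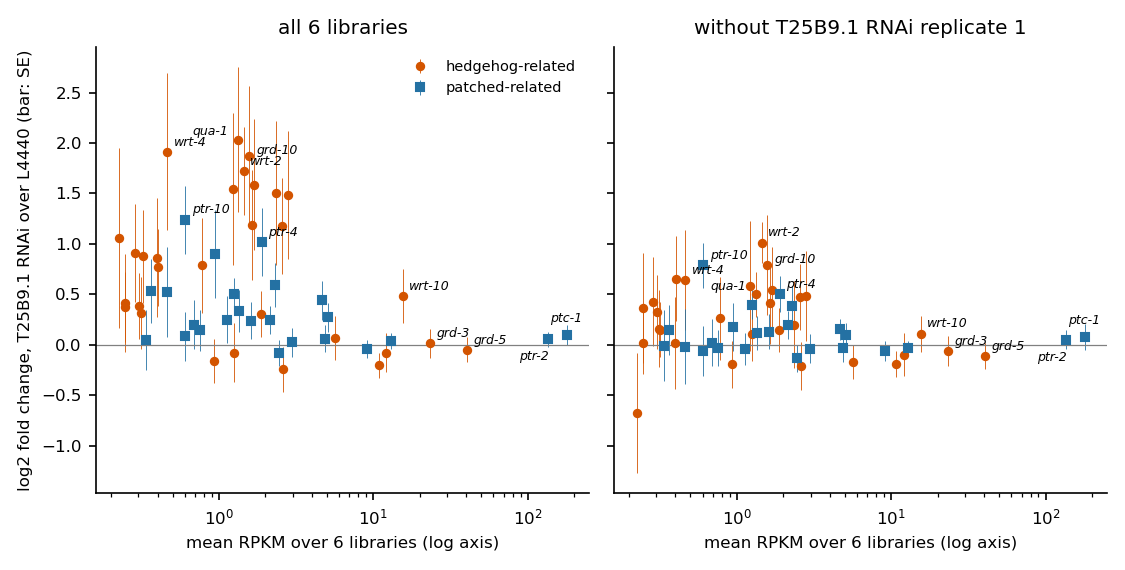
Log2 fold change, T25B9.1 RNAi over L4440, with its SE (vertical) against the mean RPKM over 6 libraries (horizontal log axis) for the 54 tested genes, from all 6 libraries (left) and without T25B9.1 RNAi replicate 1 (right). The abundant genes ptc-1, ptr-2, grd-3 and grd-5 lie near 0 in both panels, and qua-1 lies at 2.03 on the left and 0.50 on the right.

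Among the warthog genes, wrt-2 had the smallest p of the family. This gene, active in the epidermal seam cells, lies on the minus strand of chromosome X from 3092395 to 3094349 (WBcel235) and is annotated as protein coding, as are all 85 genes. Its counts were 164, 60 and 86 in the T25B9.1 RNAi libraries, against 28, 29 and 33 in the L4440 libraries. Scaled, these were 6.17, 2.10 and 2.07 CPM with T25B9.1 RNAi and 1.01, 0.940 and 1.14 CPM with L4440, so that all 3 RNAi libraries were high and the groups did not overlap. The mean was 3.44 ± 2.36 CPM with T25B9.1 RNAi and 1.03 ± 0.101 CPM with L4440 (SD, n = 3 each). The log2 fold change was 1.72 (SE 0.437, edgeR adjusted p = 0.717, DESeq2 adjusted p = 0.0333). Without T25B9.1 RNAi replicate 1 it was 1.01 (SE 0.203, edgeR unadjusted p = 0.00119, adjusted p = 0.95), and DESeq2 no longer called it (adjusted p = 0.9999). Of its exonic bases, 43 of 1537 are shared with pccb-1 on the opposite strand, and the library kit does not mark strand.

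Most other warthog genes were highest in T25B9.1 RNAi replicate 1, with the exception of wrt-3 and wrt-5. For wrt-4 the values were 3.08, 0.419 and 0.675 CPM with T25B9.1 RNAi and 0.469, 0.130 and 0.483 CPM with L4440, and RNAi replicate 2 lay within the L4440 range. For wrt-1 they were 11.2, 2.94 and 4.63 CPM with T25B9.1 RNAi and 3.46, 1.56 and 3.25 CPM with L4440, again with overlap. The log2 fold changes were 1.91 (SE 0.778) for wrt-4 and 1.17 (SE 0.478) for wrt-1, each with an edgeR adjusted p = 0.717, and 0.64 and 0.47 without T25B9.1 RNAi replicate 1. The gene wrt-9 was at 0.787 ± 0.453 CPM with T25B9.1 RNAi and 0.414 ± 0.187 CPM with L4440. Next to wrt-1 on chromosome II, only 15 bases away and on the opposite strand, wrt-10 was at 29.8, 15.7 and 15.9 CPM with T25B9.1 RNAi and 18.6, 13.3 and 11.9 CPM with L4440. Both neighbours were thus highest in T25B9.1 RNAi replicate 1, at 4.05 times the L4440 mean for wrt-1 and 2.04 times for wrt-10.

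The embryonic warthog gene wrt-5, which is needed for development of the epidermis in the embryo, had lower values, at 7.93, 7.97 and 8.38 CPM with T25B9.1 RNAi and 10.1, 8.20 and 9.70 CPM with L4440. Its log2 fold change was -0.20 (SE 0.124, edgeR adjusted p = 0.717), and its range over replicates overlapped only at the L4440 library of 8.20 CPM. The gene wrt-3 had 2.26, 1.57 and 2.58 CPM with T25B9.1 RNAi and 2.53, 2.397 and 2.28 CPM with L4440. It shares 1002 of its 2438 exonic bases with an annotated pseudogene on the same strand, so its counts are uncertain.

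Quahog, qua-1, is required for moulting and had the largest log2 fold change of the 54 tested genes. It lies on chromosome II from 8198803 to 8204004 on the plus strand (WBcel235), with 3853 exonic bases. Its levels were 19.2, 2.59 and 3.06 CPM with T25B9.1 RNAi and 2.35, 1.49 and 2.18 CPM with L4440. All 3 RNAi libraries lay above all 3 L4440 libraries, but replicate 1 lay 9.57 times above the L4440 mean, while the mean of replicates 2 and 3 lay 1.41 times above it. The log2 fold change was 2.03 (SE 0.718, edgeR adjusted p = 0.717), and 0.50 (SE 0.223) without T25B9.1 RNAi replicate 1. The gene hog-1, which has a Hog domain but no other hedgehog-related domain, had 1.54, 0.384 and 0.843 CPM with T25B9.1 RNAi and 0.722, 0.421 and 0.449 CPM with L4440. Its RNAi replicate 2 was the lowest of the 6 libraries, and its log2 fold change was 0.79 (SE 0.473).

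**Figure D3:**
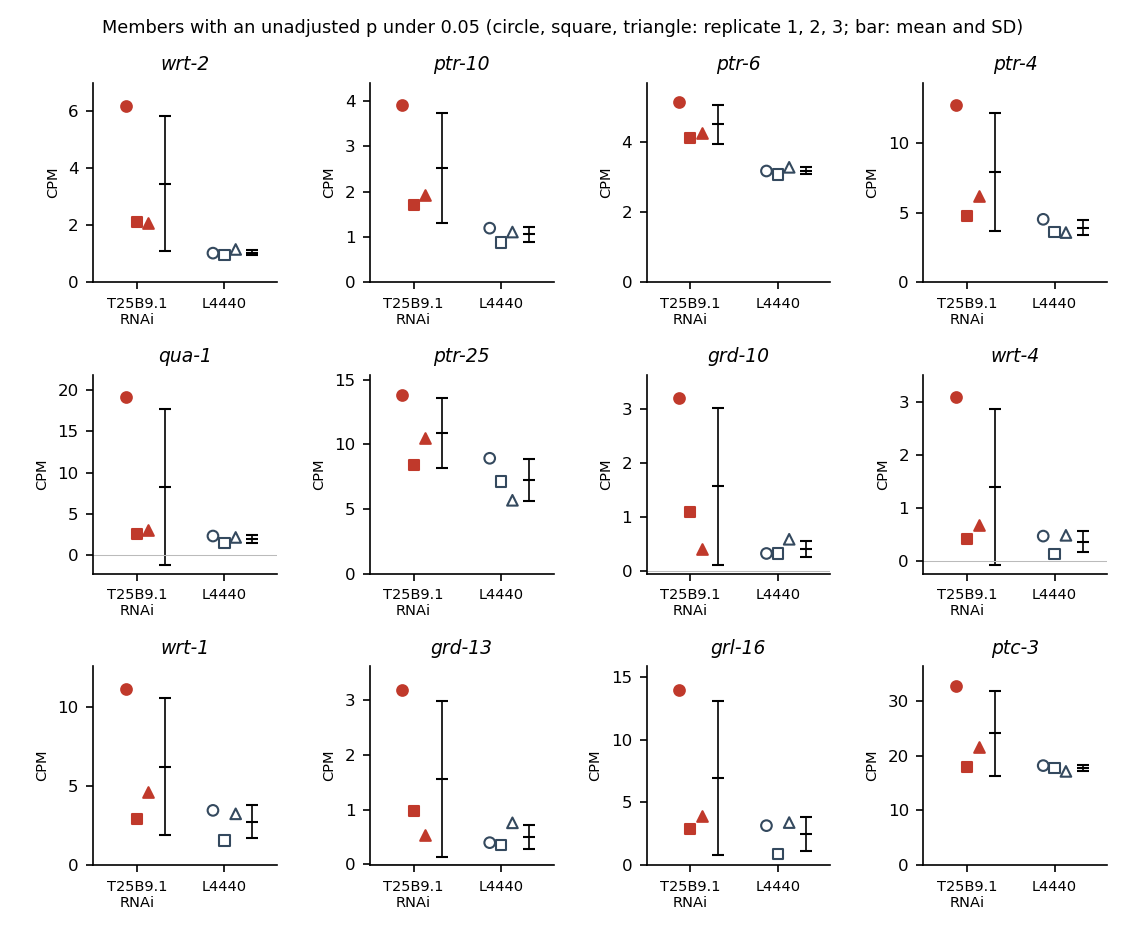
CPM in each library for the 12 genes with an unadjusted p under 0.05, T25B9.1 RNAi on the left and L4440 on the right of each panel, with the mean and SD beside the points (n = 3 each). T25B9.1 RNAi replicate 1 (circle) is the highest point in every panel, and in the wrt-2, ptr-10, ptr-6, ptr-4 and qua-1 panels the other 2 RNAi libraries also lie above all 3 L4440 libraries.

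Among the groundhog genes a high T25B9.1 RNAi replicate 1 was found at low levels, while the abundant grd-5 and grd-3 showed little difference between groups. The gene grd-5 had 22.6, 18.1 and 22.0 CPM with T25B9.1 RNAi and 21.4, 18.99 and 24.7 CPM with L4440 (log2 fold change -0.051, SE 0.124). For grd-1 the values were 2.89, 0.839 and 1.04 CPM with T25B9.1 RNAi and 1.05, 0.680 and 0.829 CPM with L4440. The gene grd-6 was at 1.50, 0.175 and 0.169 CPM with T25B9.1 RNAi and 0.361, 0.0972 and 0.380 CPM with L4440. The log2 fold change was 1.06 (SE 0.891, edgeR adjusted p = 0.759) and, without T25B9.1 RNAi replicate 1, -0.68 (SE 0.596), so its direction rested on that library.

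The genes grd-13, grd-3 and grd-10 lie in a row on the plus strand of chromosome IV, from 3438312 to 3441841 (WBcel235), with 147 and 601 bases between them. The outer genes were both highest in T25B9.1 RNAi replicate 1. The values of grd-13 were 3.20, 0.978 and 0.530 CPM with T25B9.1 RNAi and 0.397, 0.356 and 0.760 CPM with L4440. Those of grd-10 were 3.20, 1.08 and 0.410 CPM with T25B9.1 RNAi and 0.325, 0.324 and 0.587 CPM with L4440. The gene between them, grd-3, was at 17.9, 14.0 and 16.8 CPM with T25B9.1 RNAi and 14.5, 14.5 and 19.4 CPM with L4440. T25B9.1 RNAi replicate 1 thus stood at 6.34 times the L4440 mean for grd-13 and 7.76 times for grd-10, but at 1.11 times for grd-3. The log2 fold changes were 1.59 (SE 0.652) for grd-13 and 1.87 (SE 0.697) for grd-10, each with an edgeR adjusted p = 0.717, and 0.54 and 0.79 without that library. Members of one family can share reads where their sequences are alike, which the counts do not show.

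**Figure D4:**
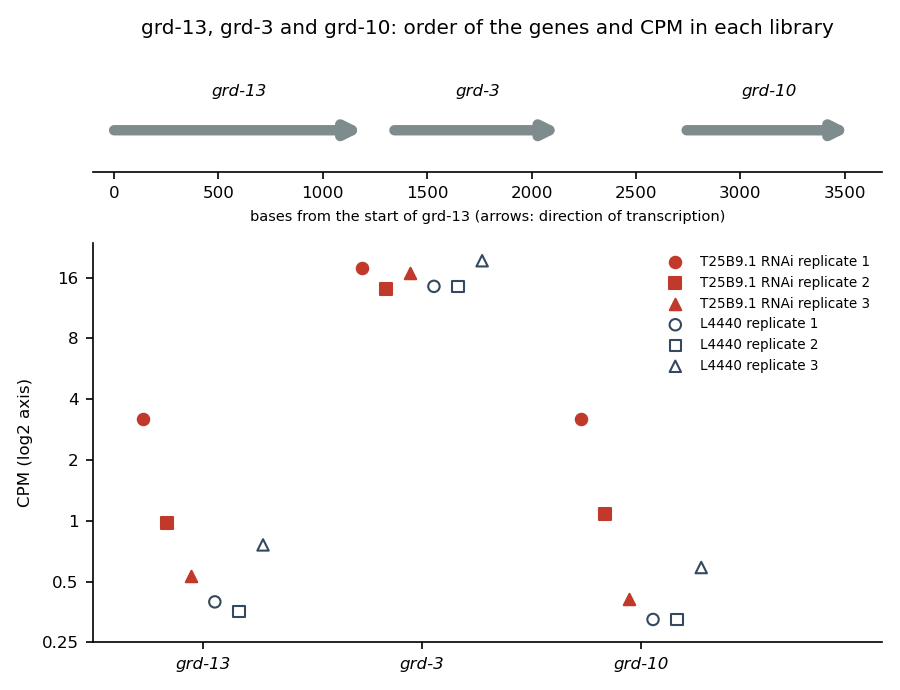
Order of grd-13, grd-3 and grd-10 on chromosome IV, with arrows for the direction of transcription and distance in bases from the start of grd-13 (top), and CPM in each library on a log2 axis (bottom, T25B9.1 RNAi filled red, L4440 open). The outer genes have their highest value, 3.20 CPM each, in T25B9.1 RNAi replicate 1, while grd-3 lies between 14.0 and 19.4 CPM in all 6 libraries.

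Among the families the ground-like genes varied most between the L4440 libraries, with an SD of 0.46 for the median log2 difference of each library, against 0.30 for wrt, 0.27 for grd and 0.048 for the patched-related genes. The gene grl-7, which acts with ptr-18 in starved larvae, was at 9.098, 1.29 and 1.95 CPM with T25B9.1 RNAi and 1.70, 0.616 and 2.00 CPM with L4440. Its T25B9.1 RNAi replicates 2 and 3 lay within the L4440 range. For grl-16 the values were 14.0, 2.90 and 3.90 CPM with T25B9.1 RNAi and 3.14, 0.875 and 3.38 CPM with L4440, and for grl-5 they were 3.27, 0.384 and 1.18 CPM with T25B9.1 RNAi and 0.722, 0.130 and 0.794 CPM with L4440. In all of these L4440 replicate 2 was the lowest library, and for grl-5 the highest L4440 library was 6.13 times the lowest. The gene grl-15 was at 2.21 ± 1.65 CPM with T25B9.1 RNAi and 0.960 ± 0.483 CPM with L4440 (SD, n = 3 each). The log2 fold changes of grl-16, grl-7, grl-5 and grl-15 were 1.48 (SE 0.637), 1.50 (SE 0.713), 1.54 (SE 0.753) and 1.19 (SE 0.546), each with an edgeR adjusted p = 0.717. Without T25B9.1 RNAi replicate 1 they were 0.48, 0.20, 0.59 and 0.42. The most abundant ground-like gene after length is taken into account, grl-4, was at 9.96, 7.69 and 11.3 CPM with T25B9.1 RNAi and 10.4, 7.91 and 12.4 CPM with L4440, a log2 fold change of -0.078 (SE 0.194).

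The most abundant patched-related gene, ptc-1, was at 959, 997 and 863 CPM with T25B9.1 RNAi and 840, 977 and 820 CPM with L4440. The groups overlapped, and the log2 fold change was 0.10 (SE 0.0968, edgeR adjusted p = 0.788). The other patched homologue, ptc-3, is essential and is needed for water balance. It had 32.8, 17.9 and 21.5 CPM with T25B9.1 RNAi and 18.2, 17.8 and 17.1 CPM with L4440, so that RNAi replicate 2 lay within the narrow L4440 range. On the log2 scale the difference was 0.44 (SE 0.193, edgeR adjusted p = 0.717), and 0.15 (SE 0.104) without T25B9.1 RNAi replicate 1. The abundant ptr-2 and ptr-21 had log2 fold changes of 0.052 (SE 0.0717) and 0.039 (SE 0.0787).

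The patched-related genes held 4 of the 6 tested genes whose groups did not overlap. The gene ptr-10, whose promoter is active in glia, was at 3.91, 1.71 and 1.93 CPM with T25B9.1 RNAi and 1.19, 0.875 and 1.10 CPM with L4440. Its log2 fold change was 1.24 (SE 0.338, edgeR adjusted p = 0.717), and 0.79 (SE 0.222, unadjusted p = 0.00789 by edgeR) without T25B9.1 RNAi replicate 1. It shares 92 of 2946 exonic bases with F55F8.8 on the opposite strand. The gene ptr-4, needed for the apical matrix of epithelia and for moulting, was at 12.7, 4.75 and 6.22 CPM with T25B9.1 RNAi and 4.51, 3.60 and 3.56 CPM with L4440. Over all libraries the log2 fold change was 1.02 (SE 0.334), and 0.50 (SE 0.179) without T25B9.1 RNAi replicate 1 (edgeR adjusted p = 0.717 with all 6 libraries).

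In contrast to these, ptr-6 showed close replicates in both groups, at 5.15, 4.12 and 4.26 CPM with T25B9.1 RNAi and 3.18, 3.08 and 3.28 CPM with L4440. The log2 fold change, 0.50 (SE 0.159, edgeR adjusted p = 0.717), was 0.40 (SE 0.145) without T25B9.1 RNAi replicate 1. For ptr-20 the values were 6.73, 6.08 and 6.17 CPM with T25B9.1 RNAi and 5.88, 4.86 and 5.28 CPM with L4440, which gave 0.24 on the log2 scale (SE 0.141). The gene ptr-25 was at 13.8, 8.39 and 10.5 CPM with T25B9.1 RNAi and 8.91, 7.10 and 5.66 CPM with L4440, where RNAi replicate 2 lay below L4440 replicate 1. The log2 fold change of ptr-25 was 0.59 (SE 0.216), and 0.38 (SE 0.196) without T25B9.1 RNAi replicate 1. The gene ptr-18, which acts in the epidermis to keep progenitor cells dormant in starved larvae, was at 6.62, 1.82 and 2.55 CPM with T25B9.1 RNAi and 1.88, 1.59 and 2.38 CPM with L4440. The genes ptr-18, ptr-20 and wrt-3 were chosen after their values were seen. Values are also printed for ptr-17, ptr-19, ptr-24, grl-1, grl-21, grd-11 and grd-12, which the naming rule given below leaves out.

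In all, 21 of the 54 tested genes were over 2-fold above the L4440 mean in T25B9.1 RNAi replicate 1 (38.9%), where 4.81% of all genes tested were. They were 16 of 30 hedgehog-related genes and 5 of 24 patched-related genes. In RNAi replicates 2 and 3 there were 2 such genes each, grd-10 and wrt-2 in replicate 2 and grl-5 and wrt-2 in replicate 3. Just above the 2-fold line were wrt-10 (2.04) and ptr-19 (2.19), and just below it grl-1 (2.00) and grd-11 (1.91). The summed level of the 21 genes was 143, 43.6 and 52.2 CPM in RNAi replicates 1, 2 and 3, against 46.3, 29.5 and 40.0 CPM in L4440 replicates 1, 2 and 3. L4440 replicate 2 was the lowest of the 6 libraries for 17 of these 21 genes, and for 11 of the other 33. Among the 21, the highest L4440 library was a median of 1.81 times the lowest, against 1.30 times among the 33. These sets were formed from the values themselves, so their difference is a description.

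The 31 genes that did not pass the filter had 1 to 67 counts in all 6 libraries together (median 16). In order of their summed counts they were grl-29, grl-28, grl-23, grl-30, grl-19, grl-24, grl-31, grd-8, grd-9, grd-15, grl-13, grl-3, grl-12, grl-11, grl-27, grl-25, grl-20, grd-7, wrt-7, ptr-9, grl-6, grd-12, grd-2, wrt-8, grl-2, grl-26, grl-21, grd-16, grl-9, grl-8 and ptr-17. Of these, grl-28, grl-29, grl-30 and grl-31 lie in a row on chromosome V with gaps of 2745, 1049 and 332 bases, and none had more than 5 counts over all libraries. The summed level of the 31 genes was 5.83, 2.83 and 4.46 CPM in RNAi replicates 1, 2 and 3, against 2.96, 2.43 and 3.73 CPM in L4440 replicates 1, 2 and 3, and overlapped between the groups. The highest of them, ptr-17, had 15, 10 and 20 counts with T25B9.1 RNAi and 8, 6 and 8 counts with L4440. All 3 RNAi libraries lay above all 3 L4440 libraries in CPM for 4 of the 31, grl-13, grl-31, wrt-8 and ptr-17. None of the 31 lay below, and the share over all genes left out by the filter was not computed. For grl-21, the ligand gene that acts through ptr-24, there were 13, 7 and 10 counts with T25B9.1 RNAi and 4, 2 and 14 counts with L4440. DESeq2, which was run without that filter, gave each of the 31 an unadjusted p, the lowest being 0.0663 for grd-12. It gave an adjusted p to 2 of them and called neither. Without any filter edgeR called none of the 31 either.

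T25B9.1 RNAi replicate 1 was also the highest library for 8 of 13 tested genes of a pathway list and for 18 of 19 tested moulting genes, both taken for description. The pathway list held 14 genes outside the family, of which 13 were tested. Among them were the dispatched-related che-14, the patched-related daf-6, the sterol transporter genes ncr-1 and ncr-2, the acyltransferase-like hhat-1 and the Gli-related tra-1. A place on the list does not show that a gene acts with the family's proteins. Of the 13 tested, 10 had a log2 fold change above 0 (median 0.24). Only the endocytic receptor gene lrp-1 had an unadjusted edgeR p under 0.05, higher with T25B9.1 RNAi. The gene lrp-1 was at 102, 62.9 and 63.6 CPM with T25B9.1 RNAi and 54.4, 61.6 and 49.2 CPM with L4440. The gene hhat-1 was at 4.10, 1.61 and 2.43 CPM with T25B9.1 RNAi and 2.27, 0.972 and 1.35 CPM with L4440.

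Of 20 moulting genes outside the family, which include lrp-1, 19 were tested, 18 were above 0 (median 0.43) and 6 had an unadjusted p under 0.05, all higher. Their summed level was 818, 482 and 472 CPM in RNAi replicates 1, 2 and 3, against 466, 456 and 371 CPM in L4440 replicates 1, 2 and 3. Without T25B9.1 RNAi replicate 1 the median of the moulting list was 0.13 and that of the pathway list 0.13.

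Markers of tissues showed which other transcripts were high in the same library. Of 8 tested epidermal and seam markers 5 were above 0 (median 0.05), with summed levels of 276 to 306 CPM over the RNAi libraries and 280 to 310 CPM over the L4440 libraries. Among them the transcription factor gene lin-26 lay between 146 and 158 CPM in all 6 libraries. It and col-19, at 83.0 to 113 CPM, made up most of these sums, which say little of the rarer markers. The larval collagen gene rol-6 was at 18.9, 1.64 and 0.578 CPM with T25B9.1 RNAi and 3.25, 0.194 and 1.04 CPM with L4440. Its log2 fold change was 2.23, and -0.46 without T25B9.1 RNAi replicate 1. The other listed collagen genes went both ways, with dpy-7 at 0.79, col-19 at -0.22 and bli-1 at -1.20. Of 7 tested glial markers 7 were above 0 (median 0.17), and their list summed to 152, 128 and 137 CPM in RNAi replicates 1, 2 and 3, against 117, 129 and 130 CPM in L4440 replicates 1, 2 and 3. Most of each glial sum came from lit-1, at 99.3 to 128 CPM. The 8 pharynx markers were all above 0 (median 0.76) and summed to 200 CPM in T25B9.1 RNAi replicate 1, to 84.6 and 78.8 CPM in RNAi replicates 2 and 3, and to 60.3 to 84.0 CPM over the L4440 libraries. Of 9 neuron markers 7 were above 0 (median 0.29, and 0.020 without T25B9.1 RNAi replicate 1), 3 had an unadjusted p under 0.05 and were higher, and 1, snb-1, had such a p and was lower. T25B9.1 RNAi replicate 1 was the highest library for 7 of these 9. Their median log2 difference from the L4440 mean was 0.74, -0.048 and 0.12 in RNAi replicates 1, 2 and 3, against -0.0099, -0.070 and 0.12 in L4440 replicates 1, 2 and 3. Of 5 muscle markers 4 were above 0 (median 0.17), and without T25B9.1 RNAi replicate 1 only 1 was (median -0.11). They summed to 1171, 582 and 773 CPM in RNAi replicates 1, 2 and 3, against 595, 711 and 886 CPM in L4440 replicates 1, 2 and 3. Most of each muscle sum came from unc-54 and unc-15.

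The germline list, with 4 of 7 genes above 0 (median 0.02), summed to 7275 to 7748 CPM over the RNAi libraries and 7430 to 7845 CPM over the L4440 libraries. The intestine list, with 5 of 7 above 0 (median 0.04), summed to 1540 to 1733 CPM over the RNAi libraries and 1475 to 1584 CPM over the L4440 libraries. Of the 6 embryo markers, 4 were tested (median -0.03) and med-1 and hlh-25 had at most 0.105 CPM in any library. Of the 5 sperm markers only fer-1 was tested (0.58), and msp-19, msp-38, spe-9 and spe-11 had at most 0.265 CPM in any library. The part of these tissues in the values of the family was not tested.

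**Figure D5:**
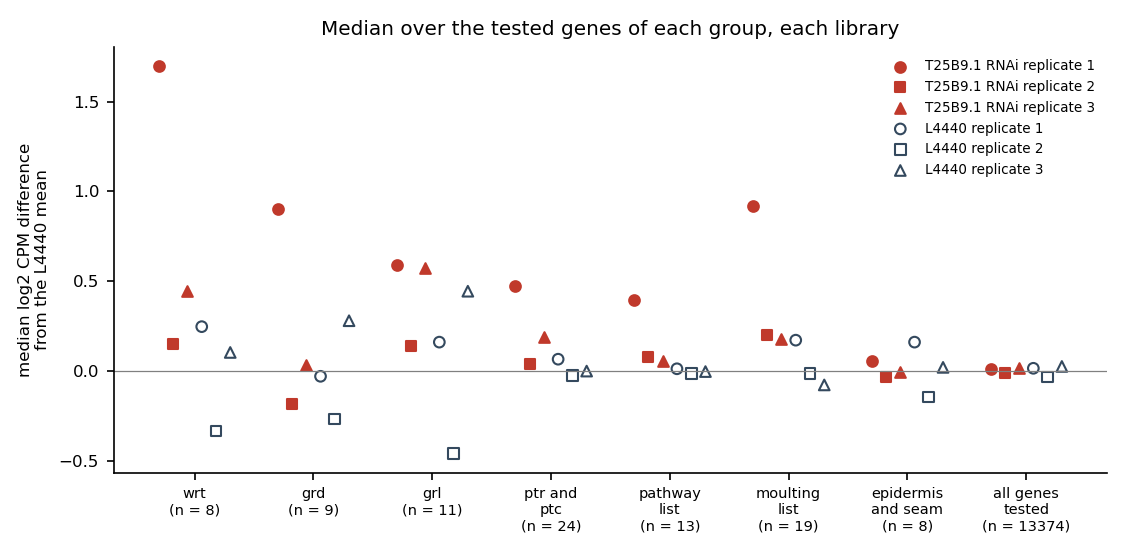
Median log2 CPM difference from the L4440 mean, over the tested genes of each group named on the horizontal axis, in each library (T25B9.1 RNAi filled red, L4440 open). T25B9.1 RNAi replicate 1 stands at 1.70 for the wrt genes, 0.90 for the grd genes, 0.59 for the grl genes, 0.47 for the patched-related genes and 0.92 for the moulting list, and at 0.0078 over all genes tested.

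By family, the median log2 difference from the L4440 mean was 1.70, 0.15 and 0.45 in RNAi replicates 1, 2 and 3 for the wrt genes, against 0.25, -0.34 and 0.10 in L4440 replicates 1, 2 and 3. For the grd genes it was 0.90, -0.18 and 0.03 in the RNAi libraries and -0.03, -0.27 and 0.28 in the L4440 libraries. For the grl genes it was 0.59, 0.14 and 0.58 in the RNAi libraries and 0.16, -0.46 and 0.44 in the L4440 libraries. For the patched-related genes it was 0.47, 0.04 and 0.19 in the RNAi libraries and 0.06, -0.03 and -0.0014 in the L4440 libraries. The median of the wrt, grd and patched-related genes was highest in RNAi replicate 1, and for the grl genes RNAi replicates 1 and 3 lay close together.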

How the data were processed

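Whole-worm total RNA was sequenced after preparation with the Illumina TruSeq v2 RNA kit, as the labels' protocols state; that kit keeps no strand. The deposited values are whole-number counts per gene. Per the submitters' processing notes the tools were bcl2fastq 1.8.4, featureCounts 1.4.6-p4 and STAR 2.4.1d, with WBcel235 as the build; options and annotation release were not named there. A second deposited table was not used: its values over the counts follow a pattern that repeats along the rows and not gene length. Symbols were matched by identifier (43693 of 46748), and lengths and positions come from Ensembl release 115 of the same build.

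Genes were filtered with filterByExpr (13374 kept), given TMM factors and fitted in R 4.3.3 by edgeR 4.0.16 (glmQLFit and glmQLFTest, 2-sided), with Benjamini-Hochberg adjustment over all genes and a threshold of 0.05, with no block. CPM are TMM-scaled, and SE is the absolute log2 fold change over the root of F. Log2 values per library use a prior count of 2. An exact permutation test of 3 against 3 libraries cannot give a p under 0.1, so none was used. The test was checked on simulated counts, drawn with the common dispersion for every gene and with no outlying library. That check does not cover a spread like that of T25B9.1 RNAi replicate 1. Alternatives were RLE factors, DESeq2 1.42.0, limma-voom (limma 3.58.1), edgeR's likelihood ratio test, no filter, a stricter filter (1 CPM and 10 counts in 3 libraries), each library left out, and a block of consecutive library numbers. DESeq2 without T25B9.1 RNAi replicate 1 was added after the data were seen. For the block, deviations from the group means correlated across genes at 0.216 for libraries 13 and 14, 0.418 for 17 and 18 and 0.285 for 21 and 22; the labels do not say that these share a culture or day.

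The rule for named genes took T25B9.1, qua-1, hog-1, ptc-1 and ptc-3. In each of the wrt, grd, grl and ptr families it added the 4 tested genes with the smallest p and the 2 with the highest RPKM. The members, lists and rules were chosen with earlier results of these data known. The listed marker elt-5 was not matched. Motifs in promoters were not examined.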

Additional observations from a re-analysis of the deposited data

How the results depend on the processing

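The family medians and the calls were recomputed under each alternative. The number of genes called over all genes tested was 0 and became 1 with RLE factors, 14 with DESeq2, 12 with the likelihood ratio test and 139 with no filter; it was 8 in DESeq2 without T25B9.1 RNAi replicate 1, and with 1 library left out it ran from 0 to 1. The number of family members called was 0 and became 1 with DESeq2 (wrt-2) and 10 of 85 with no filter. With no filter the 139 genes called were of the 22665 with at least 1 count. The 10 members were wrt-1, wrt-2, wrt-4, grd-10, grd-13, grl-7, grl-16, qua-1, ptr-4 and ptr-10. Their adjusted p ran from 0.00143 to 0.0491 by edgeR, and the cause of these calls was not tested. The number of members called was 0 with each library left out in turn and with the replicate block, which changed no call. T25B9.1 itself missed the threshold (edgeR adjusted p = 0.0525) and passed it with RLE factors (log2 fold change -1.83), DESeq2 (-1.84), the likelihood ratio test (-1.84), no filter (-1.85) and DESeq2 without T25B9.1 RNAi replicate 1 (-1.74).

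The median of the tested members ran from 0.12 to 0.46 with 1 library left out, that of the wrt genes from 0.27 to 1.14, of the grd genes from -0.06 to 0.59, of the grl genes from 0.26 to 0.75 and of the patched-related genes from 0.062 to 0.33; the lowest was without T25B9.1 RNAi replicate 1 for all but the grl genes. With the stricter filter the grl median was 1.21, over fewer genes. Of 27 named members 5 turned direction, all with log2 fold changes near 0 except grd-6, at -0.68 without T25B9.1 RNAi replicate 1 and -0.69 in DESeq2 without it. With 1 library left out grd-5 ran from -0.13 to 0.050, grd-3 from -0.064 to 0.17, grl-4 from -0.23 to 0.079, ptr-21 from -0.035 to 0.076 and grd-6 from -0.68 to 1.57. With no filter grd-3 was at -0.0011, and in DESeq2 without T25B9.1 RNAi replicate 1 grd-3 was at -0.064 and ptr-21 at -0.035. The 31 members left out by the filter, with 1 to 67 counts in all, entered only the fits with no filter or another one, and none of those with an adjusted p was called there.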
